A study of Mus musculus with 2 samples.

Results

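Potassium channel genes were followed in ureters of E14.5 mouse embryos. Members were taken by name alone, as every non-control probe whose gene name begins with Kcn, a subfamily letter and a number. This gave 94 genes on 135 of the 39429 probes, of which 93 encode pore-forming or auxiliary subunits in 20 subfamilies and 1, Kcnq1ot1, is a non-coding transcript antisense to Kcnq1. The values compare Bmp4cKO-labelled RNA, genotype Tbx18(cre/+);Bmp4(fl/fl), with control-labelled RNA, genotype Tbx18(+/+);Bmp4(fl/?), both of strain NMRI. In Bmp4cKO embryos cre sits in the Tbx18 locus, so recombination is limited to cells in which Tbx18 is or was active, and 1 intact copy of Tbx18 is left. Controls have no cre, and at least 1 of their Bmp4 alleles is floxed. Each of 2 two-colour arrays held 1 RNA of each label. On replicate 1 the Bmp4cKO-labelled RNA carried the green dye and the control-labelled RNA the red dye, and on replicate 2 the dyes were exchanged. Replicate 1 is labelled female and replicate 2 male. The sources used here do not say whether an RNA came from 1 embryo or from a pool. The p-values therefore rest only on the spread between these arrays, moderated by a variance shared over all genes. That spread may be partly technical and is not known to measure the spread between embryos.

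Potassium channels let potassium ions leave the cell and set its resting potential, and so decide how easily a muscle cell or neuron fires. Voltage-gated channels open when the membrane depolarises, inward rectifiers and K2P leak channels hold the resting potential, and calcium-activated channels couple it to calcium. The ureter is a tube of urothelium inside a coat of smooth muscle that moves urine by peristalsis. Bmp4 is a signal that the mesenchyme around the ureteric epithelium secretes, and it is known to promote differentiation of the smooth muscle coat. Pore genes are named by subfamily letter (Kcna to Kcnd, Kcnh and Kcnq are voltage-gated, Kcnj inward rectifiers, Kcnk K2P channels), and Kcnab, Kcne, Kcnip and Kcnmb genes encode auxiliary subunits.

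The targeted gene went against the label. Bmp4 had normalised intensities of 75600 and 61940 in the Bmp4cKO-labelled RNA (replicates 1 and 2), against 9191 and 4719 in the control-labelled RNA. Its log2 ratio was 3.38 ± 0.48 (SD, n = 2 arrays), and its probe lies at chr14:47003391-47003450 (mm9, minus strand). The sources used here do not say whether that stretch is deleted, and outside the deleted part a probe need not show a loss. The cause of the rise was not tested. A second Bmp4 probe was too dim to use in all 4 channels. Tbx18, the locus that carries cre in Bmp4cKO embryos, was higher too, at 0.97 ± 0.17 (SD, n = 2 arrays). Ratios below put the Bmp4cKO-labelled RNA over the control-labelled RNA, as the dye labels give it, on a log2 scale. A positive value is thus the direction of Bmp4, and all signs turn if the labels are exchanged. The authors' deposited table runs the other way, with signed folds of -8.163 and -13.88 for Bmp4, 4.151 and 6.395 for Kcnd3, and -1.258 and -1.805 for Kcnmb1.

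The sex-linked probes did not match the labels on replicate 2. There the Xist intensity was 3757 in the Bmp4cKO-labelled RNA and 231.6 in the control-labelled RNA. Ddx3y had 5638 and Eif2s3y 4653 in that control-labelled RNA, while in the Bmp4cKO-labelled RNA they had 65.66 and 87.3. The Xist intensity on replicate 1 was 5228 in the Bmp4cKO-labelled RNA and 5758 in the control-labelled RNA. Ddx3y had 73.86 and Eif2s3y 93.56 in the control-labelled RNA of replicate 1. The 2 control-labelled RNAs were thus not 1 RNA measured on both arrays. X-linked members were Kcnd1 and Kcne1l, and the calls were the same without genes of chromosomes X and Y. The called members lie on other chromosomes, so that fit left their ratios unchanged and cannot show an effect of sex on them. Since each array holds 1 RNA of each label, leaving out replicate 2 leaves the replicate 1 value of each gene, with no test; the plot by class shows it for 67 tested members.

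The Kv4 pore genes Kcnd3 and Kcnd2, whose products form transient A-type currents, were both lower. Their promoters are shown because these members moved together. Each runs from 250 bases before to 50 after the annotated start, in RefSeq's GRCm38.p6 at chr3:105451640-105451939 (plus strand) and chr6:21215096-21215395 (plus strand), and capitals mark the letters GGCGCC.
Kcnd3: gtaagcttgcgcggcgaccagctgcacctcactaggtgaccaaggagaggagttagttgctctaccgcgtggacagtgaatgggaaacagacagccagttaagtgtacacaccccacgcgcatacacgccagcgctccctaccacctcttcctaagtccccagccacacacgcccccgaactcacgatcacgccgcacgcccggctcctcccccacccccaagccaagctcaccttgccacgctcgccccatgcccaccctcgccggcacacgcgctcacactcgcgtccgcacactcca
Kcnd2: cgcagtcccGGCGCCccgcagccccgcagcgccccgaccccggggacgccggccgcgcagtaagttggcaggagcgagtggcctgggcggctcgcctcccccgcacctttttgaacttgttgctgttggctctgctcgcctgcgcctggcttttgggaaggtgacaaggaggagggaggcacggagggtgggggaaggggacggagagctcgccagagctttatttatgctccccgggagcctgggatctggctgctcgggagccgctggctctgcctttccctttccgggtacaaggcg
On both strands 3 motifs were searched, none of which overlaps another here. GGCGCC, a palindrome, was found in 11.9% of all 32851 promoters of this length and once in the Kcnd2 sequence. The TATA box, searched as TATAAA, was in 13.6% of them. The CArG box, the binding motif of serum response factor, was in 1.63%. Neither was in these 2 sequences. The Kcnd3 sequence had a GC content of 64.0% and the Kcnd2 sequence 68.7%, against a median of 52.7% over all promoters. Of the 94 members, 69 were matched in the promoter table.

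A gene was tested where a probe was well above background, by the scanner's mark, in both channels labelled Bmp4cKO or in both labelled control, and its brightest such probe was used. Of 94 members 70 passed, 66 of them in all 4 channels and 4 (Kcnf1, Kcnj12, Kcnk12 and Kcnv1) in 3. No member was above it in both channels of one label and in neither channel of the other. The 24 that did not pass comprise 15 with no probe above background in any channel (Kcna10, Kcne1, Kcne2, Kcng1, Kcng4, Kcnh5, Kcnip2, Kcnj3, Kcnj5, Kcnj9, Kcnk10, Kcnk18, Kcnmb2, Kcnn1 and Kcns2) and 9 above it in 1 or 2 channels (Kcna2, Kcnab2, Kcnb2, Kcng3, Kcnj1, Kcnj6, Kcnj11, Kcnj13 and Kcnmb3). These 24 were too dim to show a difference and are not described as unchanged.

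In all, 4 voltage-gated or auxiliary genes fell and 1 K2P gene rose in the Bmp4cKO-labelled RNA at an adjusted p under 0.05 (limma, Benjamini-Hochberg over 21978 genes). Lower were 4 of 70 members, among them Kcnd3, Kcnd2 and Kcnab1, where 1.02% of all genes tested were called lower. Higher was Kcnk3, 1 of 70, where 0.887% of all genes were called higher. At least 2-fold on both arrays, Kcnd3 and Kcnab1 were lower (0.619% of all genes) and Kcnk3 was higher (0.578% of all genes). The smallest called change among members was 1.89-fold.

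**Figure D1:**
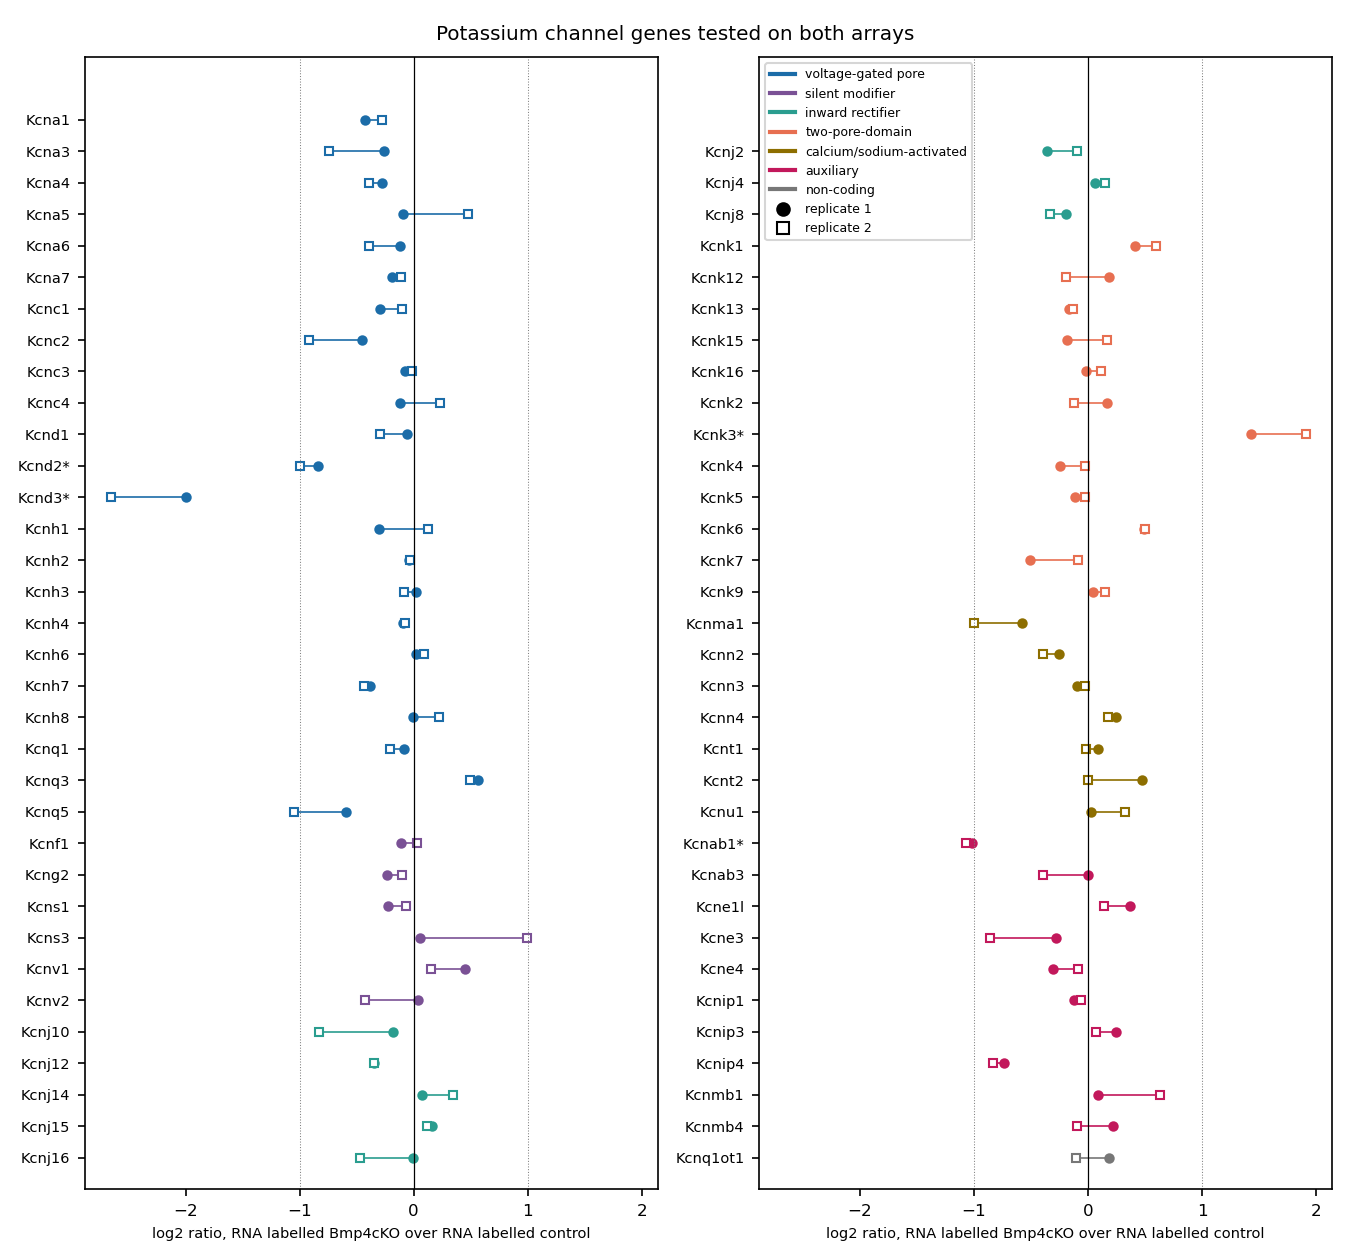
Log2 ratio (Bmp4cKO-labelled RNA over control-labelled RNA, x axis) of 67 of the 70 tested potassium channel genes on replicate 1 (filled circles) and replicate 2 (open squares), coloured by class, with a line joining the 2 arrays, dotted lines at 2-fold and an asterisk on called genes. Kcnd3 lies furthest to the left and Kcnk3 furthest to the right.

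Kcnd3 encodes Kv4.3, a pore subunit of the A-type current. Its intensities were 4609 and 3650 in the Bmp4cKO-labelled RNA, against 18430 and 22980 in the control-labelled RNA (replicates 1 and 2). The labels did not overlap, and both Bmp4cKO-labelled RNAs were low. The log2 ratio was -2.33 ± 0.46 (SD, n = 2 arrays; limma adjusted p = 0.0198), a 5.02-fold difference. Its probe lies at chr3:105476854-105476913 (mm9, plus strand), and a second Kcnd3 probe at chr3:105471938-105471997 was too dim to use in all 4 channels.

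Kcnd2 encodes Kv4.2, the paralogue that shares this current. It had 4551 and 4597 in the Bmp4cKO-labelled RNA, against 8118 and 9158 in the control-labelled RNA. Both Bmp4cKO-labelled RNAs lay below both controls. The log2 ratio was -0.91 ± 0.11 (SD, n = 2 arrays; limma adjusted p = 0.0405), and its probe lies at chr6:21679569-21679628 (mm9, plus strand). Kcnd1, the X-linked member of the Kv4 family, was at -0.06 on replicate 1 and -0.29 on replicate 2 and did not pass (adjusted p = 0.648 in limma).

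Of the auxiliary subunits and partners of Kv4 channels measured, Dpp6 passed the test. Kcnip4, a calcium-binding subunit of Kv4 channels, had 477.7 and 397.8 in the Bmp4cKO-labelled RNA, against 795.7 and 708.6 in the control-labelled RNA. The labels did not overlap, but its ratio of -0.78 ± 0.07 (SD, n = 2 arrays) missed the threshold at a limma adjusted p of 0.0536. A second Kcnip4 probe gave -0.78 and -0.61, also below 0. The other measured members of its subfamily, Kcnip1 at -0.09 and Kcnip3 at 0.16, lay near 0. Dpp6, a transmembrane partner of Kv4 channels that is no member by name, fell by 1.30 ± 0.11 (SD, n = 2 arrays; limma adjusted p = 0.0232), with 2734 and 2357 in the Bmp4cKO-labelled RNA, against 6383 and 6107 in the control-labelled RNA. Its paralogue Dpp10 was at -0.63 and -0.88 and did not pass (limma adjusted p = 0.0662).

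Among 8 measured partner proteins of potassium channels, 0 were higher and 1, Dpp6, was lower, and 6 were lower on both arrays. Their median log2 was -0.29, where it was -0.01 over all genes.

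Kcnab1, a beta subunit that binds Kv1 pores in the cytoplasm, had 287.8 and 243.3 in the Bmp4cKO-labelled RNA, against 583.6 and 510.3 in the control-labelled RNA. Its ratio of -1.04 ± 0.03 (SD, n = 2 arrays; limma adjusted p = 0.0306) had the smallest spread of the 5 called members, at chr3:65181718-65181777 (mm9, plus strand). The Kv1 pore genes it can bind were mostly below 0 too. Of 6 measured Kcna genes, 5 were lower on both arrays, 0 were called, and the subfamily median was -0.29. Kcna3 had the largest mean of the 5, at -0.50, with 739.8 and 520.1 in the Bmp4cKO-labelled RNA, against 886.1 and 871.7 in the control-labelled RNA (limma adjusted p = 0.246). Kcna5 went the other way on replicate 2, at -0.09 and 0.47.

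In the Kcnq subfamily, whose products form slow voltage-gated currents such as the neuronal M-current, Kcnq5 had 239.5 and 219.9 in the Bmp4cKO-labelled RNA, against 361.2 and 454.0 in the control-labelled RNA. The labels did not overlap, but its ratio of -0.82 ± 0.32 (SD, n = 2 arrays) did not pass (limma adjusted p = 0.0825). Kcnq3 lay on the other side of 0, with 244.4 and 266.5 in the Bmp4cKO-labelled RNA, against 165.0 and 189.1 in the control-labelled RNA, and did not pass either (limma adjusted p = 0.119). Kcnq1 had a mean of -0.15.

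**Figure D2:**
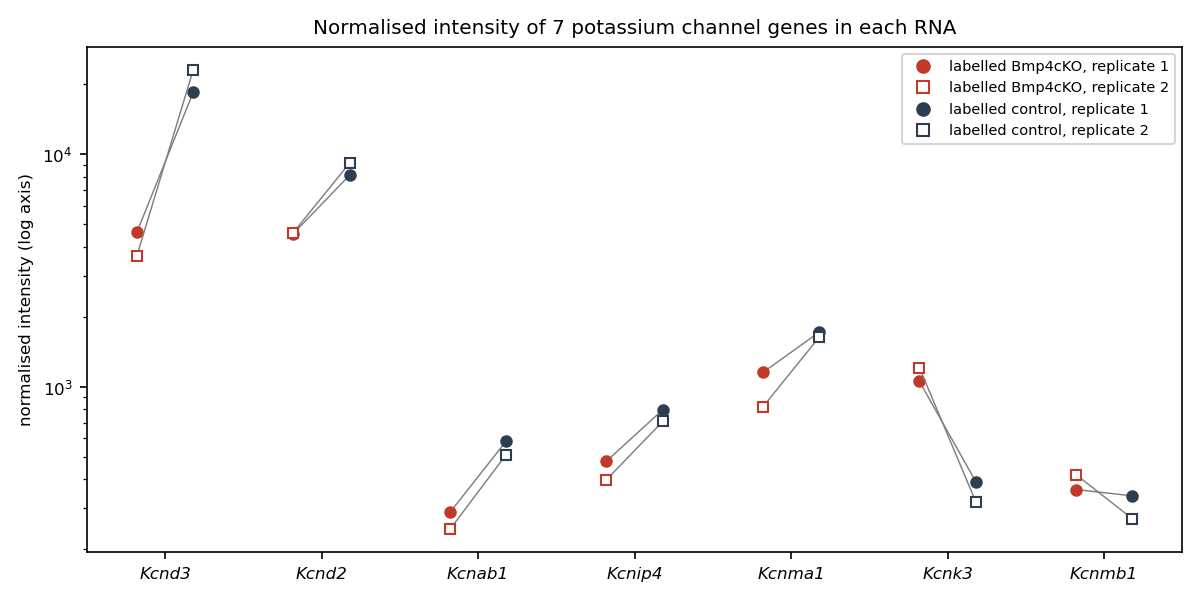
Normalised intensity (log axis) of 7 potassium channel genes, with Bmp4cKO-labelled RNA in red left of control-labelled RNA in dark blue, replicate 1 as filled circles and replicate 2 as open squares, and a grey line joining the 2 RNAs of an array. Kcnd3 shows the steepest fall, at 4609 and 3650 in Bmp4cKO-labelled RNA against 18430 and 22980 in control-labelled RNA, and Kcnk3 rises; each gene is read on its own probe, so heights are not compared between genes.

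Kcnk3 encodes TASK-1, an acid-sensitive K2P leak channel. It was the only member called higher, with 1054 and 1207 in the Bmp4cKO-labelled RNA, against 390.9 and 320.7 in the control-labelled RNA. The labels did not overlap. The log2 ratio was 1.67 ± 0.34 (SD, n = 2 arrays; limma adjusted p = 0.0232), a 3.18-fold rise in the direction of Bmp4, at chr5:30927090-30927149 (mm9, plus strand). The rest of the K2P subfamily was divided. Of 12 measured Kcnk genes, 4 were higher and 4 lower on both arrays, with a median of 0.01. Kcnk1 and Kcnk6 came next, at 0.41 and 0.60 and at 0.49 and 0.50, and did not pass (limma adjusted p of 0.146 and 0.131). Kcnk6 had 3320 and 3526 in the Bmp4cKO-labelled RNA, against 2357 and 2486 in the control-labelled RNA. Kcnk2, the mechanosensitive TREK-1, was at 0.17 and -0.12.

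The calcium-activated BK channel is the large-conductance channel of smooth muscle, built from the Kcnma1 pore and, in muscle, the Kcnmb1 beta subunit. The 2 genes lay on opposite sides of 0. Kcnma1 had 1151 and 818.4 in the Bmp4cKO-labelled RNA, against 1715 and 1633 in the control-labelled RNA, a ratio of -0.79 ± 0.30 (SD, n = 2 arrays) that did not pass (limma adjusted p = 0.0847). Its 3 probes were all lower on both arrays, with means of -0.79, -0.64 and -0.53. Kcnmb1 had 361.1 and 419.1 in the Bmp4cKO-labelled RNA, against 339.3 and 270.8 in the control-labelled RNA. Its ratio of 0.36 ± 0.38 (SD, n = 2 arrays) came mainly from replicate 2, at 0.63, with 0.09 on replicate 1, and did not pass (limma adjusted p = 0.437). Kcnmb4 was at 0.22 and -0.09. The difference between Kcnma1 and Kcnmb1 was not tested.

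Among the other genes of the large-conductance and sodium- or calcium-activated class none was called. Kcnn2 was at -0.26 and -0.39, Kcnn3 at -0.09 and -0.03 and Kcnn4 at 0.25 and 0.18. Kcnu1, the Slo3 pore, was at 0.03 and 0.33. Kcnt2 had 1133 and 806.3 in the Bmp4cKO-labelled RNA, against 814.4 and 806.4 in the control-labelled RNA, a difference on replicate 1 alone.

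Inward rectifiers lay on both sides of 0, more of them below it. Of 15 Kcnj genes 8 were measured, 5 lower and 3 higher on both arrays, with none called and a median of -0.23. Kcnj10, a rectifier of glia and epithelia, had 362.1 and 385.6 in the Bmp4cKO-labelled RNA, against 409.8 and 686.7 in the control-labelled RNA. Most of its difference therefore lay on replicate 2, at -0.83 against -0.18 on replicate 1 (limma adjusted p = 0.316). Kcnj8, the pore of the vascular ATP-sensitive channel, was at -0.19 and -0.33, and its partner Abcc9 at -0.08 and -0.47. Neither passed (limma adjusted p of 0.431 and 0.503).

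Of the Kcnc and Kcnh genes none was called. Kcnc2, of fast-spiking neurons, was at -0.46 and -0.92 (limma adjusted p = 0.124). Of 7 measured Kcnh genes Kcnh7 had the largest mean of equal sign, at -0.41. Among silent modifiers, which form channels only together with other pores, Kcns3 was at 0.06 and 0.99, Kcnv1 at 0.45 and 0.15 and Kcng2 at -0.23 and -0.10. Kcne3, a small subunit that associates with several pores, was at -0.28 and -0.86. Kcnq1ot1, the non-coding transcript, was at 0.19 and -0.10.

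By class, 26 of 30 voltage-gated pore genes were measured, with 3 called lower, 0 higher, 18 lower on both arrays and 2 higher on both arrays. Their median was -0.16. Of 10 measured auxiliary subunits 6 were lower on both arrays and 3 higher, with a median of -0.14. The inward rectifiers had the lowest class median, -0.23. It was -0.09 for silent modifiers, 0.01 for K2P genes and 0.04 for the large-conductance and sodium- or calcium-activated class. Over the 70 measured members the median was -0.09, where it was -0.01 over all 21978 genes. Members were lower on both arrays in 38 cases (54.3%, against 30.6% of all genes), higher on both in 16 (22.9%, against 28.2%) and of opposite sign in 16 (22.9%, against 41.2%). These shares describe the list and carry no test.

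**Figure D3:**
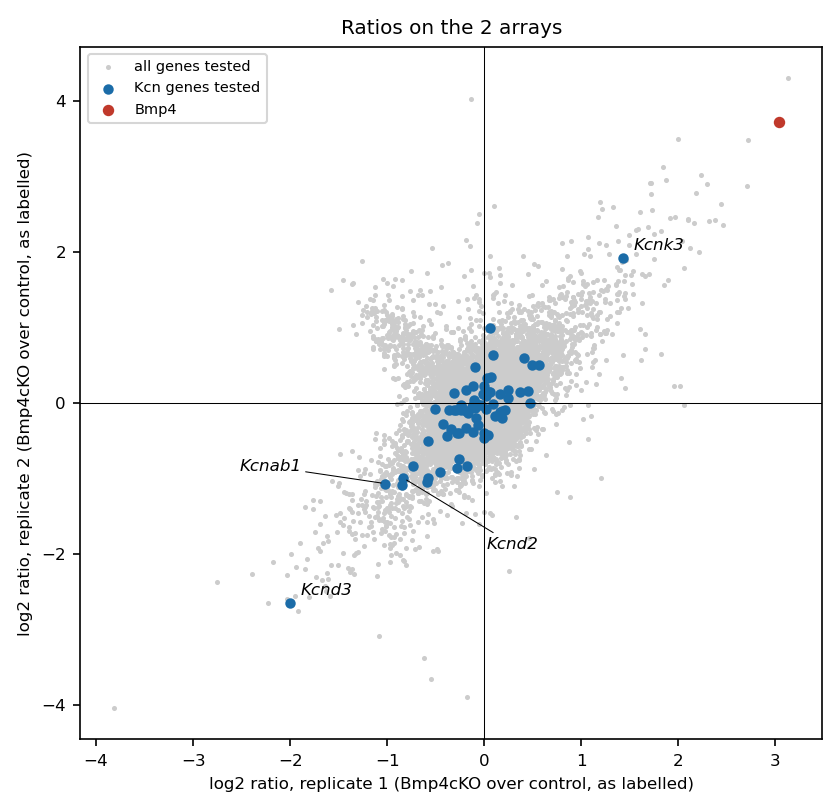
Log2 ratio (Bmp4cKO-labelled RNA over control-labelled RNA) on replicate 1 (x axis) and replicate 2 (y axis) for 21978 genes (grey), the 70 tested potassium channel genes (blue) and Bmp4 (red). The 4 called members that fell lie at the lower left, opposite to Bmp4, and Kcnk3 lies at the upper right.

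The arrays' ratios had a Pearson correlation of 0.85 and a Spearman correlation of 0.68 across the 70 members, and of 0.48 and 0.31 across all genes. These are descriptions across genes that share 2 arrays and are not independent replicates. The called members lay on the same side of 0 on both arrays, which a call on only 2 values largely requires.

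Where a gene had several passing probes they did not always agree: of 18 such members, a passing probe had the opposite sign in 7. None of the 5 called members had a second passing probe.

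Marker genes of other cell types moved between the labels as well. Of 8 measured neuron markers 0 were higher and 3 lower, among them Tubb3 and Elavl3, 7 were lower on both arrays, and their summed intensity was 13260 and 10640 in the Bmp4cKO-labelled RNA, against 17760 and 17180 in the control-labelled RNA. Tubb3 fell by 1.52 ± 0.28 (SD, n = 2 arrays; limma adjusted p = 0.0232). No neuron marker was at background in every channel. The part of these cells in the lower values of Kcnd2 and Dpp6, which neurons are known to express, was not tested, and in bulk tissue fewer cells of a type and less RNA per cell cannot be told apart. Of 4 measured kidney epithelium markers 2 were called lower, Wt1 at -1.34 ± 0.22 and Lhx1 at -1.06 ± 0.17 (SD, n = 2 arrays). On both arrays 3 of the 4 were lower, and the other was at 1.21 on replicate 1 and -0.99 on replicate 2. Umod and Slc12a1 of that list did not pass the filter on dim probes. The summed intensity of the 4 measured was 8394 and 7280 in the Bmp4cKO-labelled RNA, against 14310 and 17810 in the control-labelled RNA, and their part in the members' values was not tested.

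Smooth muscle and urothelium markers went in the direction of Bmp4. Of 10 measured smooth muscle markers 3 were higher (Myh11, Actg2 and Cnn1) and 1, Synpo2, was lower. Their summed intensity was 109000 and 139900 in the Bmp4cKO-labelled RNA, against 78620 and 69810 in the control-labelled RNA. Of 10 measured urothelium markers 6 were higher and 0 lower, with sums of 165000 and 152800 in the Bmp4cKO-labelled RNA, against 79290 and 77490 in the control-labelled RNA. The summed intensities given for marker lists add probes of unlike brightness. A few bright genes weigh most in them, so they do not measure an amount of tissue. The BK pore Kcnma1 and the Kv4 pores thus lay opposite in sign to the median of the smooth muscle markers, 0.89, and Kcnk3 lay on their side. The part of these tissues in the value of Kcnk3 was not tested.

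**Figure D4:**
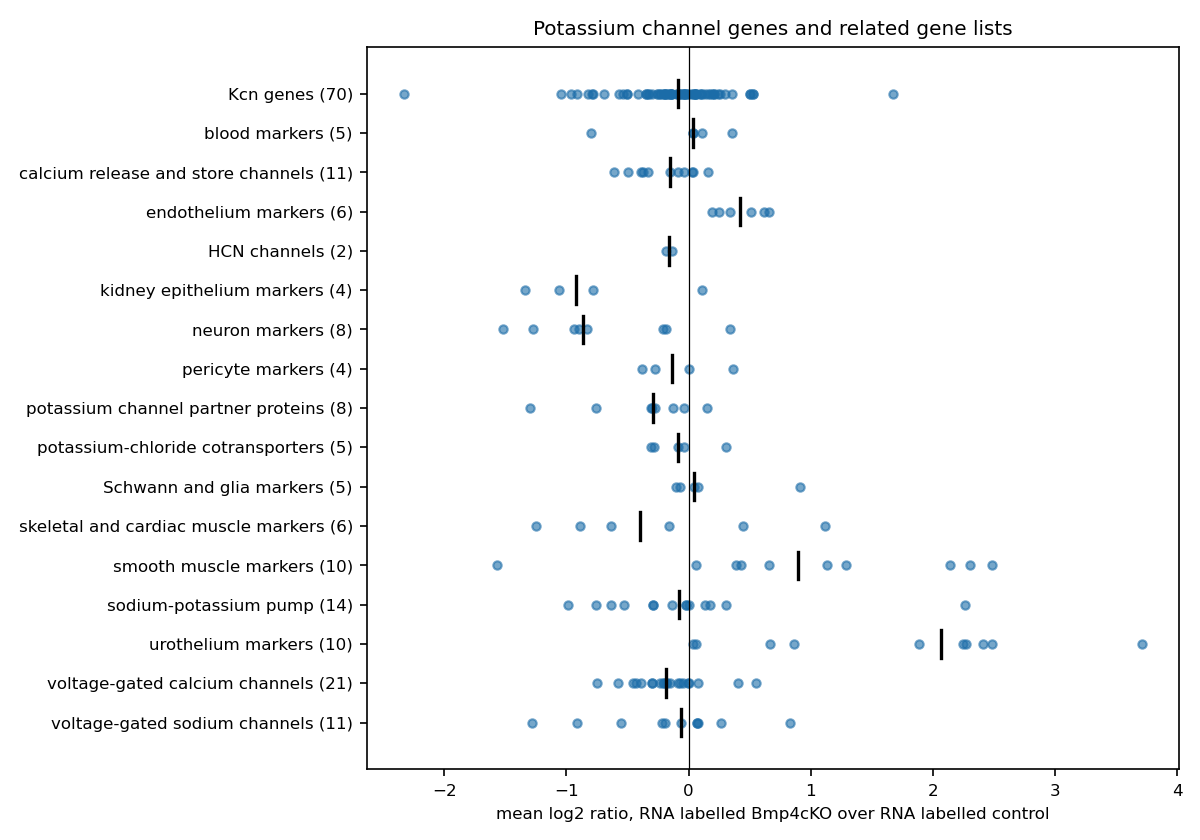
Mean log2 ratio over the 2 arrays (Bmp4cKO-labelled RNA over control-labelled RNA, x axis) of the 70 measured potassium channel genes and of 16 related gene lists, 1 point per gene, with the number measured in brackets and a black bar at each median. The bar of the potassium channel genes lies at -0.09, that of the neuron markers at -0.86 and that of the smooth muscle markers at 0.89.

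The 5 calls were not made without loess. When each array was only centred on its median, limma called 0 members and 0 of all genes. The members' 2-fold counts of 1 higher and 2 lower were the same, with 120 higher and 148 lower over all genes.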

How the data were processed

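Spots were quantified with Agilent Feature Extraction 10.7.3.1, per the submitters' processing notes and the file headers. The deposited mean and background signals are linear intensities. The other deposited intensities, the processed signals, were background-corrected and dye-normalized by the scanner software, and the deposited log10 ratio is of red over green, per the file headers. The authors' value table holds a score that, against the scanner values, proved a fold change, signed as red over green for replicate 1 and as green over red for replicate 2, with a median of 1. Its intended direction is not stated in the sources used here. Probe positions are mm9.

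Computed here, in limma 3.58.1 under R 4.3.3: normexp (offset 50), loess within arrays with control spots at weight 0, outlier spots removed (231 and 235), spots averaged, and lmFit with eBayes (4.03 prior and 1 residual degrees of freedom). Of 39429 probes 31000 were named through RefSeq tables and the rest kept the array's name. Each array had 44397 spots, none saturated, and each channel had 69.3% to 74.6% of its probe spots marked well above background. The number of arrays, 2, limits the precision. Channel intensities come from normalizing the mean brightness between arrays.

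Named are Bmp4 and Tbx18, Kcnd3 and Kcnmb1, called or 2-fold members, the largest change of equal sign in each subfamily, the 4 members that differed most between arrays, and called members of 16 related lists (up to 4) or the largest change. Other members were named after their values were seen, and some members and markers are not reported here by name. Members and lists were chosen with earlier results of these data known. Alternatives changed the background correction, normalization, dim-probe filter, prior, probe choice, channel model, arrays and value source.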

Additional observations from a re-analysis of the deposited data

Results flagged for a closer look

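In 3 members left out of the test, a probe was well above background in both channels of 1 array and in neither channel of the other. Kcnj1, a rectifier of kidney epithelium, had 345.0 in the Bmp4cKO-labelled RNA and 340.4 in the control-labelled RNA on replicate 2, against 81.61 and 84.36 on replicate 1. Kcng3 had 184.3 in the Bmp4cKO-labelled RNA and 152.7 in the control-labelled RNA on replicate 1, against 116.7 and 125.7 on replicate 2. Kcnj13 had 125.1 in the Bmp4cKO-labelled RNA and 157.7 in the control-labelled RNA on replicate 1, against 122.9 and 126.2 on replicate 2. For Kcnj13 the mark thus differed between the arrays with little difference in intensity in the Bmp4cKO-labelled RNA. What sets the arrays apart was not tested.

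The medians of 3 related lists had opposite signs on the arrays, which differ in sex label and dye orientation. Replicate 2 minus replicate 1 was 0.905 for blood markers, 0.151 for Schwann and glia markers and -0.349 for voltage-gated sodium channels. These differences were not tested, and no group held enough samples for a test of single outlying samples.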

How the results depend on the processing

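With median centring or with no normalization in place of loess, limma called 0 members higher and 0 lower, and 0 and 1 of all genes in that order. Without normalization 0 members were at least 2-fold higher and 1 lower on both arrays, and over all genes 32 higher and 85 lower. With an intensity trend in the prior 3 members were higher and 8 lower (612 and 671 of all genes). Over all genes plain background subtraction gave 339 higher and 388 lower, and the authors' value table, turned to the dye labels, 298 and 338. The cause was not tested. The members' median was -0.0927 with plain subtraction, -0.103 with processed signals, -0.11 with no normalization, -0.0537 with no filter on dim probes, -0.0908 with probes above background in all 4 channels, -0.0739 with the mean of passing probes and -0.102 with the authors' value table. Taking 1 array alone, the median ran from -0.0936 to -0.0874. On either array 1 member was at least 2-fold higher, and 2 to 4 were at least 2-fold lower, 4 of them without replicate 1. The 2-fold counts on 1 array were not made over all genes, so they have no share to be read against. Each of the 5 called members passed in 10 of 12 alternatives, the exceptions being the 2 without loess. Direction was the same in all 12, but these are not 12 separate checks. Changes of filter, prior, probe choice, channel model or sex chromosomes left the ratio of a called member as it was. All 12 reuse the same 2 arrays. Kcnip4 passed in 6 of 12. The reported fit is already paired, since each ratio is taken within an array. The unpaired fit, on separate channels with no replicate block, called 1 member higher and 4 lower (155 and 171 of all genes). Dim signal limits the 24 members that were not tested. The alternative without genes of chromosomes X and Y was chosen after seeing the data.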

Other observations

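Other ion transport genes showed a few changes beside the potassium channels. Of 11 measured voltage-gated sodium channel genes 0 were higher and 2 lower, Scn1a at -1.28 ± 0.10 and Scn3a at -0.91 ± 0.12 (SD, n = 2 arrays; limma adjusted p of 0.0232 and 0.0408). Of 14 measured genes of the sodium-potassium pump, which builds the gradient that potassium channels use, the regulatory subunit Fxyd3 rose by 2.27 ± 0.23 and Fxyd7 fell by 0.99 ± 0.06 (SD, n = 2 arrays).

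Of 21 voltage-gated calcium channel genes 0 were called and 15 were lower on both arrays, with a median of -0.19, and Cacng4 was at -0.75 (limma adjusted p = 0.0555). Of 11 calcium release and store genes 0 were called, with a median of -0.15 and Ryr3 at -0.61. HCN channels (2 measured) and potassium-chloride cotransporters (5 measured) had 0 called, with medians of -0.16 and -0.09 and Hcn3 at -0.19 and Slc12a2 at 0.31.

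Endothelium markers had a median of 0.42 with 0 of 6 called and Sox17 at 0.66. Pericyte markers had -0.14 with 0 of 4 called and Cspg4 at -0.38, and blood markers 0.04 with 0 of 5 called and Ptprc at -0.80. The summed intensity of the blood markers, most of it from globin genes, was not even between the labels on either array. The globin genes were at -1.36 and -0.77 on replicate 1 and at 1.58 and 1.49 on replicate 2. Cd68, at -0.07 and 0.14, and Csf1r, at 0.21 and -0.13, lay nearer 0 on both arrays. The sum on replicate 1 was 219300 in the Bmp4cKO-labelled RNA and 454000 in the control-labelled RNA. On replicate 2 it was 473600 and 169200. Schwann and glia markers had 0.04 with S100b higher at 0.92, and skeletal and cardiac muscle markers -0.40 with Actc1 higher at 1.12 and Myog lower at -0.89.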
